A study of Mus musculus with 6 samples.

Results

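The genes described here belong to the renin-angiotensin system and to corticosteroid signalling: Ren1, Agt, Ace, Agtr1a, Agtr1b, Agtr2, Nr3c1, Nr3c2, Hsd11b1 and Sgk1. They were followed in whole adrenal glands through all probe sets whose only gene symbol in the platform annotation was one of these 10 names. This gave 9 probe sets for 6 genes (Agt, Ace, Agtr2, Nr3c1, Hsd11b1 and Sgk1), out of 12422 probe sets that were not controls and 8251 genes with a symbol of their own. No probe set carried Ren1, Agtr1a, Agtr1b or Nr3c2 as its only symbol, and these 4 genes were not analysed here.

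The glands came from male mice aged 12 weeks, of the hypertensive strain BPH (3 arrays) and the hypotensive strain BPL (3 arrays), 2 lines attributed in the labels to Schlager. No treatment or transgene is named for either group. Each strain is an inbred line, so that any difference is one between lines, not one of a single allele. The labels count 3 mice per strain and leave unsaid whether each array was 1 mouse, so p-values cover only the spread between arrays, which may be partly technical.

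Angiotensinogen (Agt) is the precursor that renin (Ren1) cuts and angiotensin converting enzyme (Ace) turns into angiotensin II. In the adrenal cortex angiotensin II drives aldosterone synthesis, mainly through receptors of the Agtr1 kind, and Agtr2 is a second receptor with other signalling, abundant in the rat adrenal medulla. Corticosteroids act through the nuclear receptors Nr3c1 (glucocorticoid) and Nr3c2 (mineralocorticoid), Hsd11b1 regenerates active corticosterone inside cells, and the kinase Sgk1 is a target gene of both receptors.

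Agtr2 and Sgk1 had higher signals on each BPH array than on any BPL array, by ratios of means of 1.63 and 1.45, but neither passed the test across all probe sets. Of all tested probe sets, 19.7% had every BPH array above every BPL array. Hsd11b1 was bright in both strains and its groups overlapped. The Agt and Nr3c1 probe sets, 2 of the 3 Ace probe sets and 1 of the 2 Agtr2 probe sets lay near background. Around them, 8 of 18 tested glucocorticoid response genes were called higher in BPH. So was 1 of 7 tested genes of angiotensin receptor signalling, Rgs2, a brake on receptors that couple to Gq. Over all tested genes, 3.32% were called higher, and with 1 array left out the 8 became 4 to 8. The lists were chosen with earlier results of these data known, so these counts are a description only.

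Values are MAS5 signals, scaled so that all arrays have the same median. The test was limma on log2(signal + 203), a scale that understates the change of dim genes, over the 7453 probe sets left after the dimmest 40% were set aside. A probe set is said to be called when its Benjamini-Hochberg adjusted p, over all of these, was under 0.05. By this rule 306 probe sets (4.11%) were called, 237 higher in BPH (3.18%) and 69 lower (0.926%). Calls higher in BPH thus made up 77.5%, and they made up 66.3% with the scaling the authors had applied and 67.4% after quantile normalization. The authors' scaling moved the median difference of all tested probe sets by -0.11 on the log2 scale.

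The adrenal label was borne out by the cortex genes Star, Cyp11a1 and Cyp21a1, whose brightest probe sets lay at percentile 99.8 or above of all probe sets. BPL replicates 1 and 2 stood apart by skeletal muscle genes. The summed signal of 8 such markers was 7313 to 8791 in BPH, against 132233, 302870 and 28470 in BPL replicates 1, 2 and 3. Of the 8, 6 were called lower in BPH, against 0.918% of all tested genes. BPL replicate 3 also lay above all BPH arrays. Leaving out BPL replicates 1 and 2 thus does not remove the whole difference. RNA quality was read from 3' over 5' control probe sets. The log2 ratio for Gapdh was 0.17 ± 0.07 in BPH and -0.001 ± 0.050 in BPL (SD, n = 3 each). The log2 ratio for beta-actin was 1.08 ± 0.16 in BPH and 0.856 ± 0.057 in BPL (SD, n = 3 each). For both, all BPH arrays lay above all BPL arrays (exact permutation, 2-sided, p = 0.1 and adjusted p = 0.1, where 3 against 3 can reach no lower p). Values without BPL replicates 1 and 2 are given beside some of the results, and a result without such a value may also move. The part of RNA quality was not tested.

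To place the members against background, 19 control probe sets for bacterial and yeast transcripts were used, which mouse RNA does not hold. The sources used here do not say whether such transcripts were added. Their mean signals over the 6 arrays ran from 44.4 to 465, with a median of 119. All 5 member probe sets that the filter set aside had means within that range, and all 4 that were tested lay above it. The highest control mean and the filter, which corresponds to a signal of about 617, thus gave the same division.

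**Figure D1:**
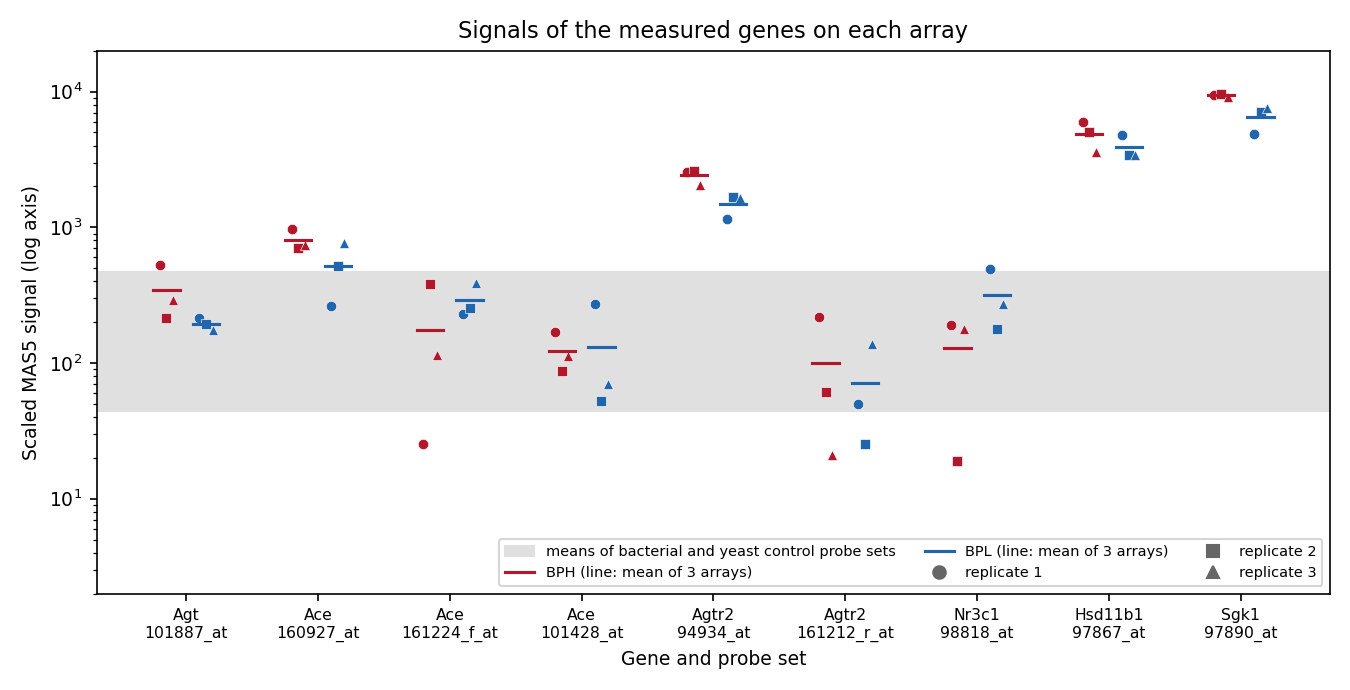
Scaled MAS5 signal (log axis) of the 9 probe sets of the 6 measured genes, with 1 point per array (circle, square and triangle for replicates 1, 2 and 3), a line at each strain's mean, and a grey band over the range of control probe set means, 44.4 to 465. Agtr2 94934_at, Hsd11b1, Sgk1 and Ace 160927_at have means above the band, and the other 5 probe sets have means inside it.

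Agt, the precursor of all angiotensins, had signals of 525, 214 and 293 in BPH replicates 1, 2 and 3, against 216, 193 and 174 in BPL. BPH replicate 1 alone stood high, and BPH replicate 2 lay just below the highest BPL array, so the groups overlapped. The mean was 344 ± 162 in BPH and 194 ± 21 in BPL (SD, n = 3 each), at the 23rd percentile of all probe sets. With no filter, the log2 difference was 0.42 ± 0.23 (SE, limma adjusted p = 0.45), where 1.02% of all probe sets were called.

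Fat and liver, tissues that make Agt, were followed by their markers. The summed signal of 7 fat markers was 247068, 169705 and 176793 in BPH and ran from 217510 to 232143 in BPL, so it was highest in the BPH array with the most Agt. The summed signal of 5 liver markers ran from 1623 to 8696 in BPH, while BPL replicates 1, 2 and 3 had 2752, 30540 and 2892. The liver product albumin (Alb) had 711, 451 and 4732 in BPH, against 323, 19442 and 1208 in BPL. BPL replicate 2, with the most liver signal, had an Agt signal of 193, between those of the other BPL arrays. The part of liver or fat in the Agt values was not tested.

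Ace, the peptidase of endothelial and some epithelial surfaces, was read by 3 probe sets that did not point the same way. The brightest, 160927_at, had 968, 701 and 736 in BPH, against 264, 517 and 768 in BPL. BPL replicate 3 fell between the BPH arrays and BPL replicate 1 lay far below them. The log2 difference was 0.54 ± 0.26 (SE, 95% interval -0.07 to 1.14, limma adjusted p = 0.29).

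This probe set lay at percentile 40.3 of the mean log2 signal, just inside the filter at the 40th, while the next member down, Agt 101887_at, lay at 23.0. When the filter used the mean of the linear signals instead, a choice made after the data were seen, Ace 160927_at was not tested. Its difference was 0.25 without BPL replicate 1 and 0.04 without BPL replicates 1 and 2. The other Ace probe sets were near background, at means of 174 ± 186 in BPH and 291 ± 83 in BPL for 161224_f_at, and of 123 ± 42 in BPH and 131 ± 121 in BPL for 101428_at (SD, n = 3 each). Their log2 differences were -0.49 and 0.01 (-0.75 and 0.25 without BPL replicates 1 and 2). The mean of the 3 probe sets differed by 0.02.

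Beside Ace, the summed signal of 7 endothelial markers ran from 23698 to 26733 in BPH and from 16001 to 23557 in BPL. In BPL it was lowest in replicate 1, the array with the lowest Ace 160927_at signal. In BPH it was also lowest in replicate 1, but that array had the highest Ace 160927_at signal. None of the 7 was called by limma in either direction. Their median log2 difference was 0.06, against 0.09 over all 5664 tested genes, and their part in the Ace values was not tested. In whole glands, fewer cells of a type and less RNA per cell cannot be told apart.

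Agtr2, the second angiotensin receptor, showed the largest difference among the 4 tested members. Probe set 94934_at had 2568, 2618 and 2058 in BPH, against 1142, 1668 and 1637 in BPL. All 3 BPH arrays lay above all 3 BPL arrays, with BPH replicate 3 lowest in its group and BPL replicate 1 lowest of all. The mean was 2415 ± 310 in BPH and 1482 ± 295 in BPL (SD, n = 3 each). The log2 difference of 0.64 ± 0.19 (SE, 95% interval 0.22 to 1.07) did not pass over all probe sets (limma unadjusted p = 0.0080, adjusted p = 0.11).

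With the dimmest 60% left out, which tests fewer probe sets, Agtr2 was called at an adjusted p of 0.048 (limma), and over the alternatives in which it was tested its adjusted p ran from 0.048 to 0.57. Without BPL replicates 1 and 2 the difference was 0.50 (limma adjusted p = 0.57). The second probe set, 161212_r_at, was near background at 100 ± 104 in BPH and 71 ± 59 in BPL (SD, n = 3 each). Its log2 difference was 0.11, and -0.22 without BPL replicates 1 and 2. The mean of both Agtr2 probe sets differed by 0.38 and fell under the filter.

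The start region of Agtr2 is printed because its groups did not overlap. It is a RefSeq sequence of GRCm38.p6, 250 bases before to 50 after the start site, 5′ to 3′ on the gene's strand. Such windows were searched on both strands for ACANNNTGT (the core of a glucocorticoid response element), TGACG (the short form of the cAMP response element), TGANTCA (AP-1), AGGTCA (a nuclear receptor half-site) and TATAAA, with matches put in capitals. None was found in the Agtr2 window, which therefore has no capitals.
Agtr2, chrX:21484374-21484673, plus strand: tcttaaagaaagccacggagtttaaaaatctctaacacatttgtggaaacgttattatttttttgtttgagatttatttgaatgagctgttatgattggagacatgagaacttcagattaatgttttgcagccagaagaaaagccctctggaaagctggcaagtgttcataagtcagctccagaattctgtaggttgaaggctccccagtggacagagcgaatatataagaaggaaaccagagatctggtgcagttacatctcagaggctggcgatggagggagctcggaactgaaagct

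Markers of both adrenal compartments stood beside Agtr2. Over all tested genes, 3.32% were called higher and 0.918% lower. Of 6 tested chromaffin cell markers, 2 (Th and Scg2) were called higher and 0 lower. The summed signal of the 6 ran from 229150 to 298399 in BPH and from 144389 to 226085 in BPL. Of 6 glomerulosa markers, 2 (Nr4a2, also an immediate early gene, and Vsnl1) were called higher and 1 (Shh) lower. Sums of the 6 were 36871 to 41680 in BPH and 16236 to 26205 in BPL. Of 5 fasciculata markers, 2 (Hao2 and Mrap) were called higher and 1 (Mgst1) lower. Sums of the 5 were 101574 to 117993 in BPH and 96882 to 109430 in BPL, which overlapped. Of 7 markers of the whole cortex, 0 were called by limma, with sums of 674056 to 788573 in BPH and 543502 to 710553 in BPL. BPL replicate 1 had the lowest sum of its group in each of these lists, as well as the lowest Agtr2 signal. The part of cell makeup in the Agtr2 difference was not tested.

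Nr3c1, the glucocorticoid receptor of most cell types, was read by 1 probe set, 98818_at, that lay near background. It had 190, 18.8 and 179 in BPH, against 492, 179 and 273 in BPL. BPL replicate 1 alone stood clearly high and BPH replicate 2 clearly low, and the groups overlapped. With no filter, the log2 difference was -0.64 ± 0.30 (SE, limma adjusted p = 0.39). A value in this range says that this probe set gave little signal, not that the transcript is missing.

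Hsd11b1, which regenerates corticosterone from its inactive keto form, was bright in both strains, at the 82nd percentile. Probe set 97867_at had 5996, 5045 and 3595 in BPH, against 4813, 3432 and 3429 in BPL. Replicate 1 was highest in each strain, BPH replicate 3 lay below BPL replicate 1, and the groups overlapped. The log2 difference was 0.30 ± 0.22 (SE, 95% interval -0.21 to 0.81, limma adjusted p = 0.48). The interval spans ratios from 0.863 to 1.76 on this scale, and over the 20 alternatives the difference ran from 0.14 to 0.50. Without BPL replicates 1 and 2 the difference was 0.46.

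Liver and fat also make Hsd11b1. BPH replicate 3 and BPL replicate 2 had the most liver signal in their groups, with Hsd11b1 signals of 3595 and 3432. The summed fat signal was highest, among BPH arrays, in replicate 1, which also had the highest Hsd11b1 signal. Among BPL arrays it was highest in replicate 2, at 232143, while Hsd11b1 was highest in replicate 1, at 4813. Without BPH replicate 3 and BPL replicate 2, an alternative chosen after the data were seen, the difference was 0.42 (limma adjusted p = 0.45). The part of liver or fat in the Hsd11b1 values was not tested.

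Sgk1, a kinase that keeps epithelial sodium channels at the cell surface and responds to corticosteroids and to other stimuli, was the brightest member, at the 91st percentile. Probe set 97890_at had 9434, 9633 and 9197 in BPH, against 4846, 7053 and 7605 in BPL. The BPH arrays lay close together and all above the BPL arrays, of which replicate 1 was lowest. The mean was 9421 ± 218 in BPH and 6501 ± 1460 in BPL (SD, n = 3 each). The log2 difference of 0.55 ± 0.19 (SE, 95% interval 0.11 to 0.98) did not pass over all probe sets (limma unadjusted p = 0.020, adjusted p = 0.16).

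The lowest Sgk1 array of all was also the lowest for Agtr2 and Ace 160927_at. The Sgk1 difference was 0.35 without BPL replicate 1 and 0.30 without BPL replicates 1 and 2 (limma adjusted p = 0.30 and 0.78). The 20 alternatives gave 0.30 to 0.67, with adjusted p from 0.090 to 0.78. Beside it, 14 of 19 tested immediate early genes were called higher and 0 lower, against 3.32% and 0.918% of all tested genes. Their summed signal was 268669 to 359800 in BPH and 77795 to 100507 in BPL. The part of these stimulus-driven genes in the Sgk1 values was not tested.

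The RefSeq table held 14 windows for 8 of the 10 genes, and 6 of these windows were for Sgk1, which has several start sites. The 2 that held ACANNNTGT are printed, as context for a corticosteroid target. Capitals mark matches to the same 5 motifs.
Sgk1, chr10:21978422-21978721, plus strand: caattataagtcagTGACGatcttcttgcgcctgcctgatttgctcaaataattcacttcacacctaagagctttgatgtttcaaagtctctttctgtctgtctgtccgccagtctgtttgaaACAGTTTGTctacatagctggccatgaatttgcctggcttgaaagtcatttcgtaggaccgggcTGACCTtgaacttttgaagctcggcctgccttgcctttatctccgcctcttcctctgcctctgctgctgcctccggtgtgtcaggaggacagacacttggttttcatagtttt
Sgk1, chr10:21993640-21993939, plus strand: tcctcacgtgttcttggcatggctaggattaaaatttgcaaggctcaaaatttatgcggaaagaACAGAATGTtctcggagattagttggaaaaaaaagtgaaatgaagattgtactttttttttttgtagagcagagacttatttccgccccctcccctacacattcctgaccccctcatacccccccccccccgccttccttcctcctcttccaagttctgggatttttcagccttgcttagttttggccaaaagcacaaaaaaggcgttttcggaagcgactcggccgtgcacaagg

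In the first Sgk1 window the matches began 236 (TGACG), 127 (ACANNNTGT) and 63 (AGGTCA, on the other strand) bases before the start site, and in the second ACANNNTGT began 186 bases before it. Of all 32851 windows, 6.85% held ACANNNTGT, 20.8% TGACG, 7.81% TGANTCA, 16.3% AGGTCA and 13.6% TATAAA. A match describes the letters of the reference, and the arrays measured neither binding nor which start site was used.

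**Figure D2:**
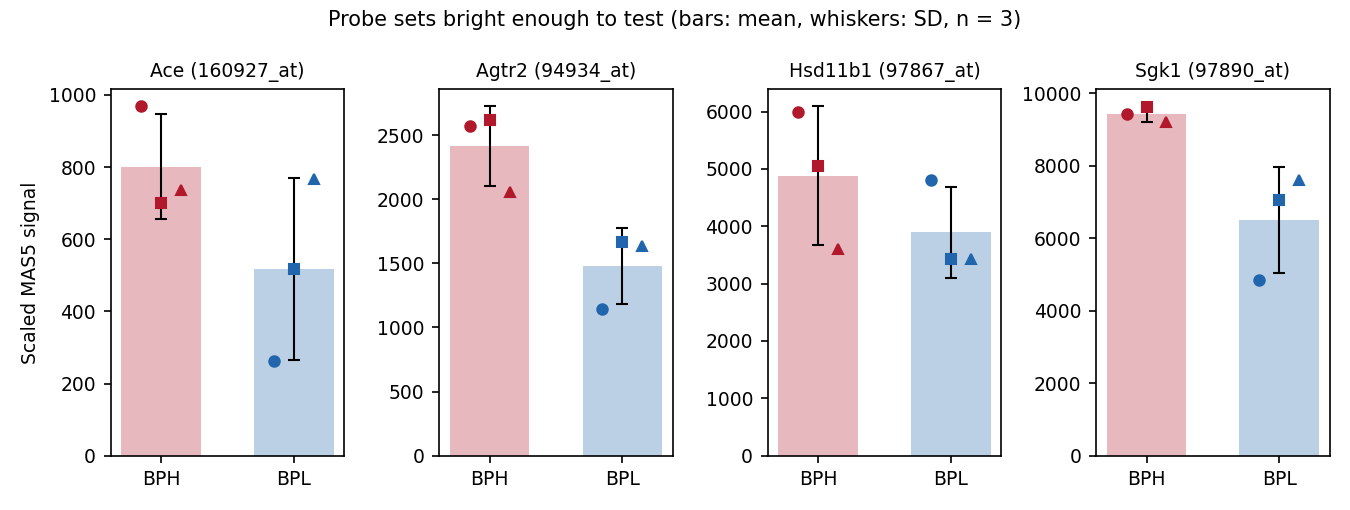
Scaled MAS5 signal of the 4 member probe sets bright enough to test, with points for arrays (circle, square and triangle for replicates 1, 2 and 3), bars for means and whiskers for SD (n = 3 each). Agtr2 and Sgk1 show BPH arrays all above BPL arrays, while Ace and Hsd11b1 overlap.

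Across the members, 0 of the 4 tested member probe sets were called by limma, against 4.11% of all tested probe sets, and 2 had an unadjusted p under 0.05, against 20.6%. Groups did not overlap, with BPH higher, for 2 of the 4, against 19.7% of all tested probe sets (7.97% with BPH lower). All 4 differences were positive, and the median over all tested probe sets was 0.08. None of the 5 dim probe sets had groups that did not overlap. With 4 probe sets, these shares are a description only.

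**Figure D3:**
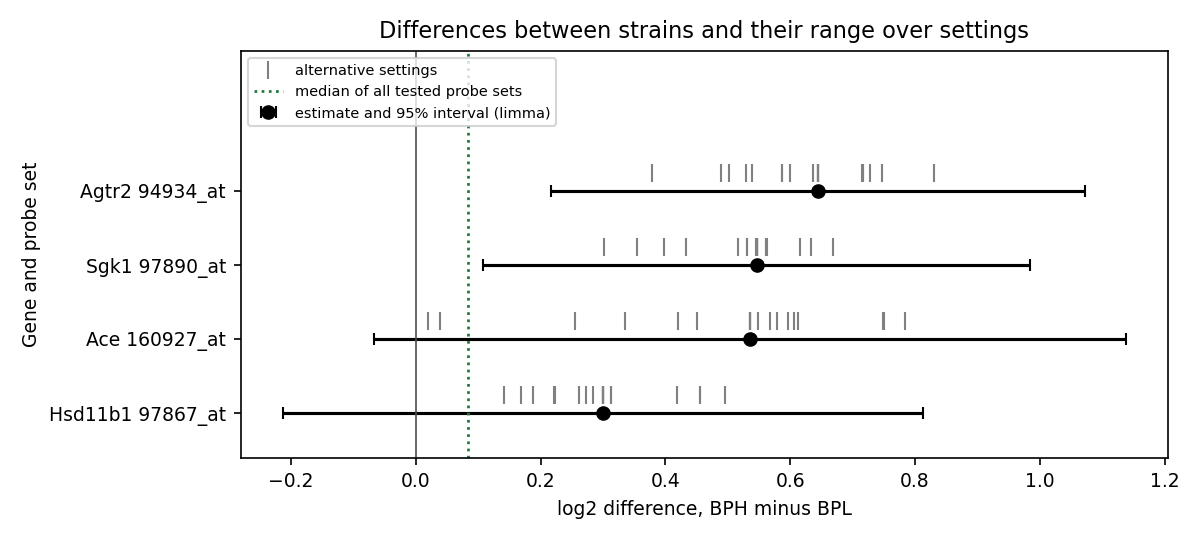
Log2 difference (BPH minus BPL) of the 4 tested member probe sets, with 95% intervals from limma (points and whiskers), the values under the alternative settings (grey ticks) and the median of all tested probe sets (dotted line, 0.08). The Agtr2 and Sgk1 intervals lie above 0, those of Ace and Hsd11b1 include it, and the ticks of Ace run from 0.02 to 0.78.

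Among other genes of the renin-angiotensin system, 12 of 16 listed had a probe set, 7 were tested and 0 were called by limma in either direction, with a median log2 difference of 0.16 (all tested genes, 0.09). The tested ones were Atp6ap2, the prorenin receptor, at 0.16 ± 0.15, and Agtrap, which binds and moderates Agtr1a, at -0.31 ± 0.20 (SE). Mas1, the receptor of a shortened angiotensin, had -0.33 ± 0.21 (SE). Among the peptidases, Enpep, which shortens angiotensin II, had -0.16 ± 0.19 and Anpep, which trims the next product, 0.59 ± 0.34 (SE). The oligopeptidase Thop1 had 0.62 ± 0.39 and the mast cell chymase Cma1 0.34 ± 0.22 (SE), and limma adjusted p ran from 0.36 to 0.65 over the 7 genes. The other 2 Cma1 probe sets were near background.

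Anpep and Thop1 each had their lowest signal in BPL replicate 1, at 368 and 240, against 1157 to 1391 and 731 to 1508 in BPH. BPL replicate 3 had 1495 for Anpep, above all BPH arrays, and 1096 for Thop1, inside the BPH range. Klk1, Cpa3, Nln, Mme and Ctsg were near background, and Ren2, Lnpep and Prcp were among those not analysed here.

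Of 12 measured genes of signalling downstream of angiotensin receptors, 7 were tested. Of these 7, 1 was called, Rgs2, higher in BPH (14.3%, against 3.32% over all tested genes). Rgs2, which speeds the shut-off of Gq proteins, had 40351, 33430 and 35134 in BPH, against 11041, 12463 and 13076 in BPL. All BPH arrays lay above all BPL arrays, and the log2 difference was 1.56 ± 0.16 (SE, limma adjusted p = 0.0013). Rgs2 was called under all 20 alternatives, at 1.41 to 1.61. The other 6 did not pass, among them Gna11, a Gq-class subunit, at 0.15 ± 0.20, and the kinase Prkce at -0.77 ± 0.26 (SE, limma adjusted p = 0.71 and 0.15), and the list median was -0.03. Both Prkce probe sets had all BPH arrays below all BPL arrays, against 7.97% of all tested probe sets, although 1 of them fell under the filter. A dimmer Plcb1 probe set had all BPH arrays higher, against 19.7% of all tested probe sets. It had a log2 difference of 0.56 and was not called, while the brightest Plcb1 probe set had -0.18. A second, dimmer Gna11 probe set had 0.78 and was not called.

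Chaperones and cofactors that hold or assist the corticosteroid receptors included several genes higher in BPH. Of 12 tested, 3 were called higher and 0 lower (25%, against 3.32% higher and 0.918% lower over all tested genes). The list median was 0.40. The list was chosen with earlier results of these data known, so the share is a description only. Hsp90aa1, the chaperone that keeps the receptor ready to bind its steroid, had 81524, 70521 and 54016 in BPH, against 16506, 21738 and 27447 in BPL, a log2 difference of 1.65 ± 0.23 (SE, limma adjusted p = 0.0067). A second Hsp90aa1 probe set lay near background, with a difference of -0.19, and the mean of both differed by 0.73 and was not called (limma adjusted p = 0.068). The Hsp90aa1 partners Stip1 and Hspa8 rose by 0.92 ± 0.17 and 0.88 ± 0.15 (SE, limma adjusted p = 0.026 and 0.018). All 3 are also heat-inducible or stress-responsive genes.

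Among the other tested genes of that list, Fkbp4 and Fkbp5, co-chaperones with opposite effects on the receptor, had 0.38 ± 0.20 each and did not pass (SE, limma adjusted p = 0.32 and 0.33). The coactivators Ncoa1 and Ncoa3 had 0.21 ± 0.16 and -0.07 ± 0.18 (SE). Without BPL replicates 1 and 2, which leaves 4 arrays, 0 of the list were called by limma, and the differences were 1.297 for Hsp90aa1, 0.80 for Hspa8 and 0.71 for Stip1. With no filter, with the replicate block, without BPH replicate 1, without BPH replicate 2 or without BPL replicate 2 the count was 1, as also without BPH replicate 3 and BPL replicate 2.

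Of 20 genes known to respond to glucocorticoids, all had a probe set and 18 were tested. The list was chosen with earlier results of these data known, so its shares are a description only. Of the 18, 10 did not pass, and the median over all 18 was 0.60. The other 8 were called higher, and 0 lower (44.4%, against 3.32% and 0.918% over all tested genes). The largest was Errfi1, a feedback inhibitor of the EGF receptor, with 17478, 26851 and 14669 in BPH, against 3620, 4895 and 4241 in BPL, a log2 difference of 2.12 ± 0.24 (SE, limma adjusted p = 0.0020). A second, dimmer Errfi1 probe set had a log2 difference of 1.25, short of the threshold (limma adjusted p = 0.065). The cell cycle inhibitor Cdkn1a counts among the 10 by its brighter probe set, at 0.21 ± 0.21, while a dimmer one was called higher, at 1.58 ± 0.36 (SE, limma adjusted p = 0.59 and 0.047).

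Dusp1, a phosphatase that switches off MAP kinases, had 18730, 30783 and 21988 in BPH, against 4771, 9224 and 5519 in BPL, a log2 difference of 1.87 ± 0.28 (SE, limma adjusted p = 0.0087). Ddit4, an inhibitor of the mTOR pathway, rose by 1.49 ± 0.22 and the metallothioneins Mt1 and Mt2 by 1.21 ± 0.22 and 1.17 ± 0.21 (SE, limma adjusted p = 0.0081, 0.023 and 0.022). The clock gene Per1 and the transcription factors Cebpb and Cebpd rose by 1.15, 0.96 and 0.87. In all 8 the BPH arrays lay above the BPL arrays, against 19.7% of all tested probe sets. These 8 were picked by their calls, so this adds no support to them.

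Several genes of the list that are often used to read glucocorticoid action did not pass. Fkbp5, which the chaperone list also holds, had 6600, 9114 and 7525 in BPH, against 4847, 5639 and 7395 in BPL, which overlapped (0.38 ± 0.20, SE, limma adjusted p = 0.33). Zbtb16 had 0.52 ± 0.25, Klf9 0.005 ± 0.186 and Pdk4, a brake on glucose oxidation, -0.58 ± 0.39 (SE, limma adjusted p = 0.29, 0.99 and 0.42). Tsc22d3, a classic glucocorticoid-induced gene, fell under the filter and was not tested, at 447 ± 163 in BPH and 596 ± 198 in BPL (SD, n = 3 each), and so did Tat, a liver enzyme that was highest in BPH replicate 3 (1020) and BPL replicate 2 (1785).

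Errfi1, Dusp1, Ddit4, Per1, Cebpb, Cebpd and the metallothioneins also respond to growth factors, metals, hypoxia or other stimuli. The sums of the immediate early list are given beside Sgk1. Both lists were chosen by hand, so their sharing 0 genes does not set the 8 called genes apart from stimulus-driven genes. Leaving out BPL replicates 1 and 2 together kept 3 of the 8 called (Errfi1, Dusp1 and Ddit4), with 4 arrays left in the test. The differences of the 5 that lost the call were then 1.10 for Mt1, 1.25 for Mt2, 1.11 for Per1, 0.94 for Cebpb and 0.93 for Cebpd. Of single arrays, leaving out BPH replicate 1 or BPL replicate 2 gave 5 called, and leaving out BPH replicate 2 or BPL replicate 1 gave 4. The part of tissue makeup and RNA quality was not tested.

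**Figure D4:**
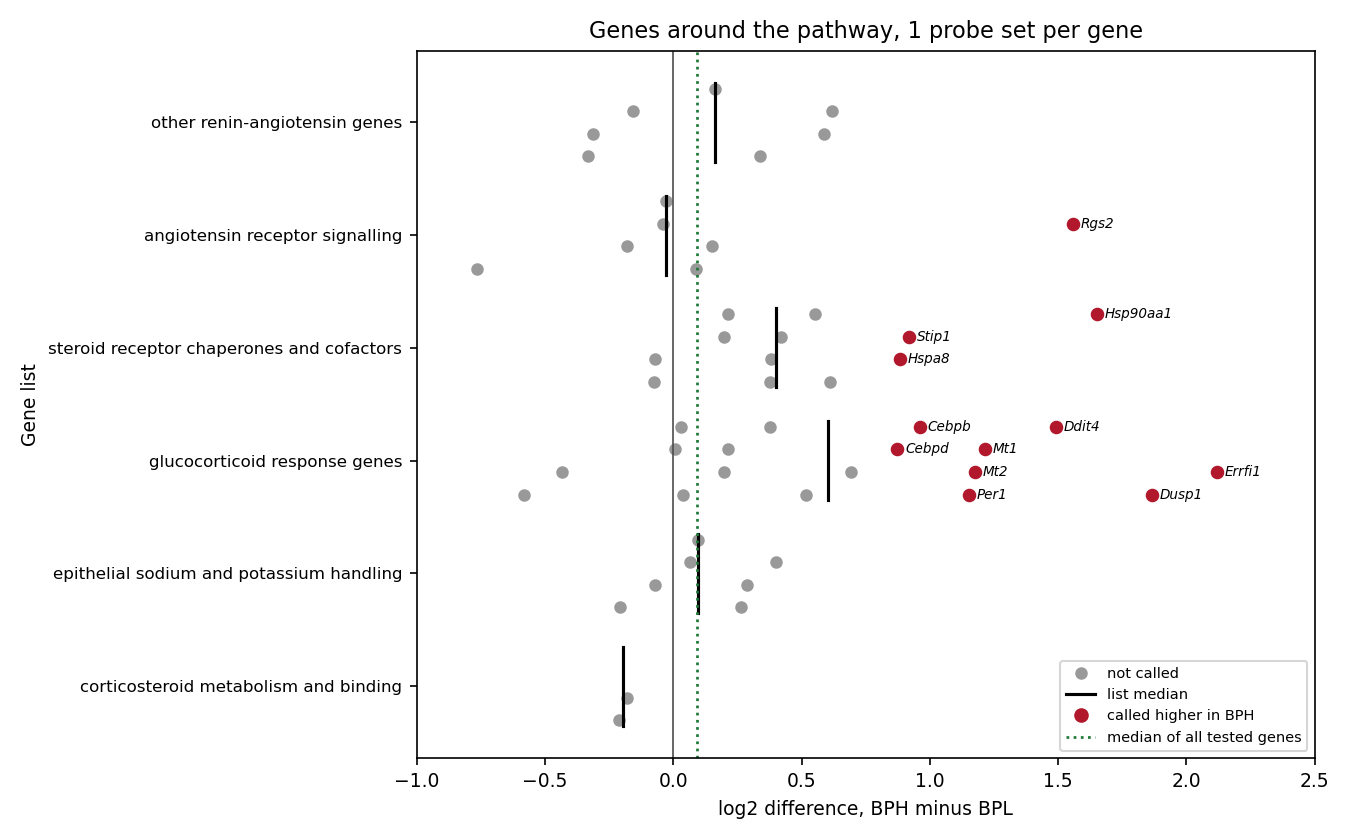
Log2 difference (BPH minus BPL) of each tested gene of 6 lists around the pathway, 1 probe set per gene (vertical offsets only separate the points), with a black line at each list's median and a dotted line at the median of all tested genes, 0.09. The 12 called genes, all higher in BPH, are Rgs2, 3 chaperones and 8 glucocorticoid response genes.

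Genes of epithelial sodium and potassium handling, some of them substrates or partners of Sgk1, showed 0 calls by limma among 7 tested, with a median of 0.09 and a range of -0.21 to 0.40. Nedd4l, the ubiquitin ligase that Sgk1 restrains, had -0.07 on its brightest probe set and -0.57 on another, neither called, and the kinase Wnk1 had 0.29. Of genes that metabolise or bind corticosteroids, 2 were tested and 0 called by limma. H6pd, which supplies Hsd11b1 with its cofactor, had 15006, 12794 and 11980 in BPH, against 14769, 15730 and 14474 in BPL (-0.18 ± 0.15, SE, limma adjusted p = 0.53). Serpina6, the corticosteroid-binding globulin, had -0.21 ± 0.21 (SE, limma adjusted p = 0.59). Another Serpina6 probe set fell just under the filter, at percentile 39.7.

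Hsd11b2, which inactivates corticosterone where aldosterone acts, lay near background in both of its probe sets, at 172 ± 28 in BPH and 208 ± 38 in BPL, and at 207 ± 167 in BPH and 215 ± 69 in BPL (SD, n = 3 each). The liver enzyme Cyp3a11 was bright on BPH replicate 3 and BPL replicate 2 alone, at 2444 and 4202, and at 134 or less on the other 4 arrays. These were also the arrays with the highest summed liver signal of their groups. Cyp3a13 fell under the filter, at 550 ± 274 in BPH and 625 ± 288 in BPL (SD, n = 3 each).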

How the data were processed

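Biotinylated cRNA from adrenal total RNA was measured on Affymetrix arrays, per the labels' protocols. Each deposited value is a linear signal intensity, which the authors computed with MAS5 according to the submitters' processing notes. Settings of MAS5 are not given in the sources used, and detection calls were not used. Array medians ran from 945 to 1144, a spread of 21.0% (tolerance 10%), and all arrays were therefore brought to a common median of 1040, the mean of the 6.

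After 66 control probe sets were left out, log2(signal + 203), 203 being the 20th percentile of all signals, was tested with limma 3.58.1 (R 4.3.3). Probe sets in the lowest 40% by mean log2 value were not tested. Tests were 2-sided, on 4 residual plus 4.50 prior degrees of freedom, with Benjamini-Hochberg adjustment over 7453 probe sets. The number of arrays limits the precision. Errors are SE from limma or SD over 3 arrays. The model was also run on simulated data with independent noise and known changes. These held no outlying arrays or mixed tissue, so that run does not cover such features of the real arrays.

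Genes were named from the platform annotation (1 symbol for 10833 probe sets, several for 396, none for 1193). For lists, each gene was counted by its tested probe set with the highest mean log2 value. Named genes were all members, up to 4 called genes of each pathway list with the largest differences, the 1 or 2 brightest markers, and the genes of the renin-angiotensin and corticosteroid metabolism lists. Any other gene was singled out with its values already known. Members and lists were chosen with earlier results of these data known. At most 1 value was identical between any 2 arrays. Alternatives varied the scaling, pseudocount, filter, variance model, block, arrays and probe set rule.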

Additional observations from a re-analysis of the deposited data

How the results depend on the processing

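Over 20 alternatives, 0 of the tested members were called by limma, except with the dimmest 60% left out, where 1 (Agtr2) was. The differences of Agtr2, Sgk1, Ace 160927_at and Hsd11b1 stayed positive in all 20. The 306 calls over all probe sets became 127 with no filter, 92 without BPL replicates 1 and 2, 134 without BPH replicate 3 and BPL replicate 2, and 112 to 372 without 1 array each (128, 112 and 186 without BPH replicates 1, 2 and 3, and 160, 138 and 372 without BPL replicates 1, 2 and 3). The 8 calls among glucocorticoid response genes became 4 with no filter, 3 without BPL replicates 1 and 2, 4 without BPH replicate 3 and BPL replicate 2, and 4 to 8 without 1 array each. No filter tests more probe sets and leaving out arrays uses fewer samples. With the replicate block, 239 probe sets, 0 members by limma and 7 glucocorticoid response genes were called. Same-numbered arrays deviated from their group means with correlations of -0.06, -0.05 and -0.18 across probe sets, so the numbers were not taken as pairs. With a pseudocount of 1, the differences of the dim probe sets of Agt, Ace (161224_f_at) and Nr3c1 were 0.73, -1.44 and -1.72. Signals near background limit what can be said of Agt, Nr3c1 and the dim Ace and Agtr2 probe sets.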
